A study of Homo sapiens with 6 samples.

Results

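The genes described here are 48 that act from late G2 phase to the end of mitosis. They were chosen by symbol from a list of cyclins, mitotic kinases, spindle checkpoint proteins, kinesins, kinetochore proteins and spindle and cytokinesis factors. Each symbol matched 1 of the 60609 gene identifiers in the files, and all 48 were abundant enough to be tested among 15958 genes.

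Cells enter mitosis when cyclin B bound to the kinase CDK1 is activated by CDC25 phosphatases. Polo-like and Aurora kinases then build the spindle, kinesins move chromosomes and microtubules, and kinetochores attach each chromosome to the spindle. The spindle checkpoint holds the anaphase-promoting complex (APC/C) inactive until all kinetochores are attached, after which APC/C bound to CDC20 marks securin and cyclin B for destruction. Most of these genes are transcribed only in cycling cells, late in the cycle, through promoter elements bound by the DREAM and B-MYB-FOXM1 complexes.

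Messenger RNA libraries were compared from HEK293, a line grown from human embryonic kidney and immortalised by sheared adenovirus DNA. One group of 3 libraries was labelled wild type and the other group of 3 was labelled STAT5b knock-out, made with CRISPR/Cas9. STAT5B is a transcription factor activated by JAK kinases after cytokine or growth hormone signalling. Per the labels the knockout cells were clones with both alleles mutated, all cells grew in DMEM with fetal bovine serum, and no further treatment was described. The sample names contain the word Sham, and the growth protocol speaks of GS knockout clones, neither of which the labels explain, so a further difference between the groups cannot be told apart from the STAT5B genotype. The labels speak of triplicates but not of what they were, and neither the number of clones nor the use of separate cultures is stated, so a p-value here sets the groups against a spread that may be technical only. Clonal differences and loss of STAT5B cannot be told apart. Nor can a shift in the share of cells in mitosis be told apart from a change of mRNA per cell in such bulk samples.

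The libraries held 17494958 to 21099813 estimated counts, and 312 to 15672 of these fell on each listed gene. STAT5B mRNA was at 70.1, 64.6 and 69.4 CPM (counts per 1000000 on TMM-scaled library sizes) in wild-type cells and 63.1, 61.8 and 60.5 CPM in knockout cells. It fell by 0.14 in log2 units (SE 0.047, edgeR adjusted p = 0.0468), and a two-sided exact permutation test gave p = 0.1, the smallest that 3 against 3 libraries allow. The call ended in 12 of 16 alternatives, among them DESeq2 (adjusted p = 0.0759) and leaving out any library other than wild-type replicate 2 (0.0610 to 0.160). Since a small mutation can leave the number of reads as it was, these values are no check of the genotype. All 10 HEK293 markers were detected, among them VIM, NEFM and NEFL; NEFM fell by 1.14 and EYA1 rose by 1.12 in log2 units. Of 14 haematopoietic, endothelial and fibroblast markers 5 had no count in any library, and their summed levels were at most 2.63, 0.268 and 6.62 TPM (transcripts per 1000000, a level per length).

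The mitotic mRNAs did not move in 1 direction in the knockout. Of the 48 genes 8 rose, 8 fell and 32 did not pass the test (edgeR adjusted p under 0.05, over all genes tested). The genes that rose were NUF2, NEK2, SPC25, PRC1, CKAP2, HMMR, CDC20 and AURKB. The genes that fell were MKI67, CENPE, KIF20A, CENPF, CDC25B, TOP2A, BUB1B and KIF11. The changes were small: the log2 fold changes ran from −0.62 for MKI67 to 0.39 for NUF2, and 8 of the 48 passed with a change of more than 1.2-fold, as did 10.9% of all tested genes and 11.9% of those at like levels.

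These counts lie near the background of the comparison. Over all tested genes 23.4% were called, 12.1% higher and 11.4% lower, and the share depends on abundance. Among the 8389 tested genes within the range of mean level of the list, 18.9 to 650 CPM, 34.5% were called, against 33.3% (16 of 48) in the list. The median log2 fold change was 0.0046 over the list and 0.0063 over all tested genes. For 26 of the 48 genes the libraries of the groups did not overlap in CPM, the knockout being above in 15 and below in 11. The same was so for 38.6% of all tested genes, 19.9% above and 18.7% below, and for 49.9% of genes at like levels. The scale of measurement mattered for the rises: limma on log2(TPM + 1) called 2 listed genes higher and 8 lower, with a background of 3.06% and 7.11%, and 30.1% of its calls over all genes were rises against 51.4% in the count test. With offsets for the deposited effective lengths 4 listed genes rose, beside 5.58% of all genes, and 6 fell, beside 5.28%. Falls also outnumbered rises with offsets for length and GC content, as given below. The backgrounds of these alternatives are over all genes, and shares at like levels were not computed for them.

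**Figure D1:**
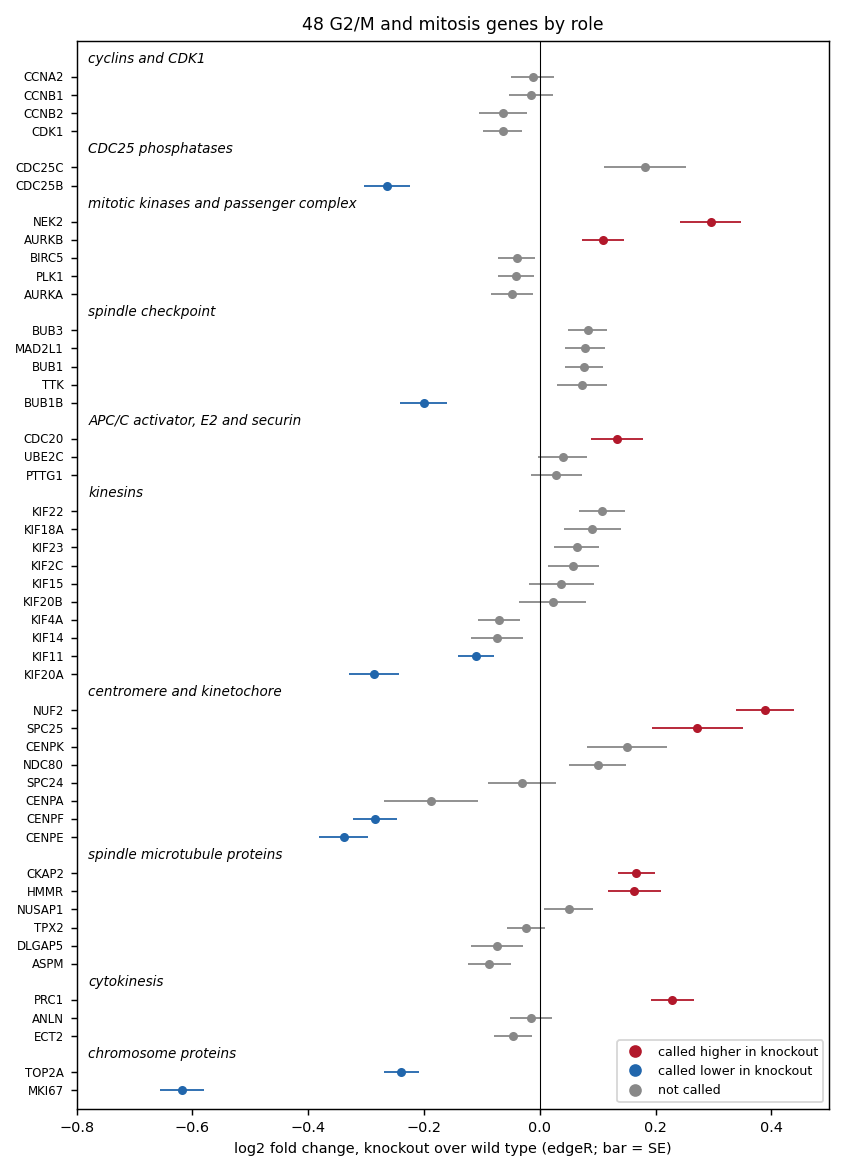
Log2 fold change of each of the 48 genes, knockout over wild type, grouped by role on the vertical axis; points are edgeR estimates from 3 against 3 libraries, bars are SE, red and blue mark genes called higher and lower. Calls in both directions occur within the kinetochore group, and the cyclins and CDK1 lie close to 0.

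Promoters of mitotic genes are known for a cell cycle genes homology region (CHR), which recruits DREAM and B-MYB-FOXM1, and for CCAAT boxes bound by NF-Y. RefSeq promoter windows (GRCh38.p14, 250 bases before to 50 after the start) were found for 42 of the 48 genes, those without being AURKA, BIRC5, BUB3, TPX2, TTK and UBE2C. A CHR was searched as TTTGAA or TTCGAA on both strands, thus also as TTCAAA, and the box as CCAAT or ATTGG. A CHR match stood in 31 of 42 genes (73.8%) and in 15.3% of 11266 tested genes with a window. For CCAAT these shares were 34 of 42 (81.0%) and 43.2%, and for both motifs 26 of 42 (61.9%) and 6.47%. Over all 35116 windows of this length 16.4% held a CHR match and 34.6% a CCAAT match. The matches did not line up with the direction of change, as a CHR match stood in 5 of 8 genes that rose, 6 of 8 that fell and 20 of 26 that did not pass.

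The 120 bases before the RefSeq start are shown for 3 genes that rose (PRC1, HMMR, CDC20), 3 that fell (MKI67, BUB1B, KIF11) and 2 that did not pass (CCNB2, PLK1), so that promoters with a CHR can be seen beside differing changes. NEK2, AURKB, CKAP2, CENPE and KIF20A, which also passed, hold no CHR match in their windows and are not shown, and BUB1B has no CCAAT match. Capitals mark CHR and CCAAT matches, and matches overlap where TTTGAA runs into ATTGG in MKI67 and where CCAAT runs into ATTGG in HMMR.
PRC1 (chr15:90994536-90994655, minus strand): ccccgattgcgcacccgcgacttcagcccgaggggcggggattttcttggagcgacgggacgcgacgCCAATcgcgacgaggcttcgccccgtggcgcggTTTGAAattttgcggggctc
HMMR (chr5:163460512-163460631, plus strand): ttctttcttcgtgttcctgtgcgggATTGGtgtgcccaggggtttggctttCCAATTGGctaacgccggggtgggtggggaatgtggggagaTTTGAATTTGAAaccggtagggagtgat
CDC20 (chr1:43358861-43358980, plus strand): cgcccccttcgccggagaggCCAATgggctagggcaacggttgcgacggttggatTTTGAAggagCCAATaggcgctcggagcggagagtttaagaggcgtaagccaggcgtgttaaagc
MKI67 (chr10:128126424-128126543, minus strand): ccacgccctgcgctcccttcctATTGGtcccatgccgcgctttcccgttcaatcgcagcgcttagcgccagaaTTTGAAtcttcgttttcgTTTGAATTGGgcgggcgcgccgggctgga
BUB1B (chr15:40160949-40161068, plus strand): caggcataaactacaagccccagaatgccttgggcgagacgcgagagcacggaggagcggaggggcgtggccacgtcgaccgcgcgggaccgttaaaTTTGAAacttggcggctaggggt
KIF11 (chr10:92593010-92593129, plus strand): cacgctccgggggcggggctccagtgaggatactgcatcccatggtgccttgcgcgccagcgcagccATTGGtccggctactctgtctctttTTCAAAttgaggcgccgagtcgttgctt
CCNB2 (chr15:59105026-59105145, plus strand): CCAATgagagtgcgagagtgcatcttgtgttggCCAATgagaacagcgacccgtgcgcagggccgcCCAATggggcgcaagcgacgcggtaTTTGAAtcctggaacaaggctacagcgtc
PLK1 (chr16:23678769-23678888, plus strand): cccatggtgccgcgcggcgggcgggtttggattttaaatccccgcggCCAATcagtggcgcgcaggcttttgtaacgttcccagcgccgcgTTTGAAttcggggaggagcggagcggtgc
In MKI67, BUB1B, KIF11, CCNB2, PLK1, HMMR and PRC1 the CHR nearest the start begins 20 to 29 bases before it, and in CDC20 it begins 65 bases before. The called genes TOP2A, SPC25, CDC25B, NUF2 and CENPF also hold CHR matches but are not shown. Their matches begin 194 and 151 bases before the start in TOP2A and 247 and 3 before it in SPC25. They begin 38 bases before a start of CDC25B, and 16 and 40 bases after the starts of NUF2 and CENPF. In CDC20 a CCAAT box lies between the CHR and the start, and in MKI67 a box match begins 24 bases before the start, at the end of the nearest CHR. In CCNB2 the 120 bases hold 3 CCAAT boxes, all upstream of the CHR.

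Levels per length spanned a wide range in the wild type. CCNB1 was the highest, with 306, 291 and 295 TPM, followed by BUB3 at 290, 285 and 285 TPM and UBE2C at 267, 244 and 257 TPM. KIF15 was the lowest, with 13.7, 16.5 and 14.6 TPM, below CDC25C with 19.1, 17.8 and 18.8 TPM. Neighbours in this order often overlapped, as CCNB1 and BUB3 did in the knockout, where they had 264 to 296 and 255 to 291 TPM. The 3 highest and the 2 lowest genes held the same ranks in the knockout. MKI67 moved the most in this order, from rank 17 to rank 30 of 48. Together the 48 genes took 0.784% to 0.800% of all counts in the wild-type libraries and 0.744% to 0.753% in the knockout libraries. Their summed level without MKI67 was 7035 to 7184 CPM in wild-type cells and 6934 to 7098 CPM in knockout cells. These ranges overlap. In TPM the sum over all 48 genes was 5014 to 5065 in wild-type and 4763 to 4854 in knockout libraries, ranges that do not overlap. On log2(TPM + 1) the median log2 fold change over all tested genes was −0.059. A sum without MKI67 was taken in CPM only.

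**Figure D2:**
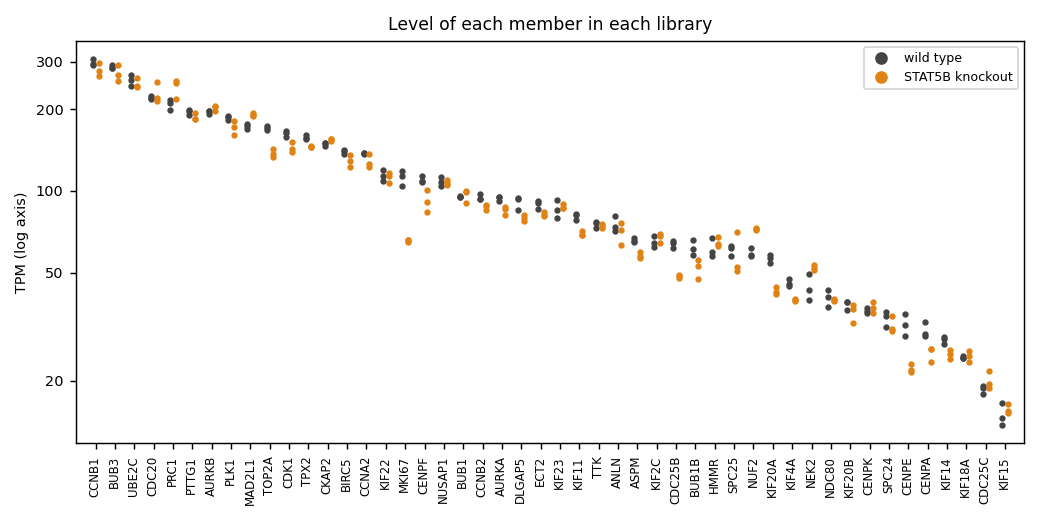
Level of each of the 48 genes in TPM on a log axis, in order of the wild-type mean; each point is 1 library, 3 wild type in grey and 3 knockout in orange. CCNB1 stands highest and KIF15 lowest in both groups, and the MKI67 points of the groups are the farthest apart.

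The cyclin and CDK1 group, which drives entry into mitosis, showed no call among its 4 genes, neither in edgeR nor in DESeq2, and 0 of them had an unadjusted p under 0.05. CCNB1, the main mitotic cyclin, had 229, 222 and 227 CPM in wild-type cells and 212, 224 and 236 CPM in knockout cells. CDK1, its kinase partner, had 145, 140 and 145 CPM against 134, 136 and 140 CPM (log2 fold change −0.064, edgeR adjusted p = 0.201). CCNA2, the cyclin of S and G2 phases, and CCNB2, the second B-type cyclin, had log2 fold changes of −0.013 and −0.063. In all of them the libraries of the groups overlapped in CPM. In TPM all knockout libraries lay below the wild type for CDK1 (139 to 152 against 158 to 166). The same was so for CCNB2 (85.1 to 89.0 against 93.7 to 97.8) and, narrowly, CCNA2 (123 to 136.6 against 137.2 to 138), while CCNB1 overlapped. The share of all genes apart in TPM was not counted. None of these genes passed on log2(TPM + 1), where the median log2 fold change over all tested genes was −0.059. In a fit with offsets that take out trends with transcript length and GC content, added after seeing the data, CDK1 and CCNB2 passed as lower (log2 fold changes −0.16 and −0.14, edgeR adjusted p = 0.00675 and 0.0179). EXOSC9 on the opposite strand overlaps CCNA2, and no source used here says whether counting used strand.

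The 2 CDC25 phosphatases, which remove inhibitory phosphates from CDK1, differed. CDC25B (ENSG00000101224.17, hg38 and GENCODE 29 here and for the genes that follow, chr20:3786772-3806121, plus strand), which acts early at centrosomes, had 102, 101 and 97.4 CPM in wild-type cells and 85.3, 80.5 and 83.8 CPM in knockout cells. Every knockout library lay below every wild-type library, and the gene fell by 0.26 in log2 units (SE 0.040, edgeR adjusted p = 2.96e-04). CDC25C had 19.0, 19.9 and 20.8 CPM against 22.4, 23.7 and 21.5 CPM. These groups did not overlap either, but the edgeR adjusted p was 0.0802. FAM53C on the opposite strand overlaps CDC25C at 109 CPM, so its level is uncertain.

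Among the mitotic kinases NEK2 and AURKB rose, while PLK1 and AURKA did not pass. NEK2 (ENSG00000117650.13, chr1:211658657-211675630, minus strand), which helps to part the centrosomes, had 43.8, 48.2 and 45.7 CPM in wild-type cells and 56.2, 58.3 and 54.4 CPM in knockout cells. All knockout values were above all wild-type values, and the rise was 0.30 in log2 units (SE 0.053, edgeR adjusted p = 0.00108). AURKB (ENSG00000178999.13, chr17:8204733-8210600, minus strand), the kinase of the chromosomal passenger complex, had 107, 114 and 110 CPM against 119, 120 and 119 CPM. Its groups were also apart, but the rise of 0.11 was at the threshold (edgeR adjusted p = 0.0462). PLK1, the polo-like kinase, had 171, 173 and 175 CPM in wild-type cells and 167, 167 and 169 CPM in knockout cells, and AURKA, the spindle pole kinase, had 106, 108 and 111 CPM against 105, 108 and 103 CPM. The fold changes of PLK1 and AURKA were −0.042 and −0.048 in log2 units (edgeR adjusted p = 0.372 and 0.386), and that of BIRC5, survivin, the partner of AURKB, was −0.040. The AURKB call ended in 14 of 16 alternatives, among them DESeq2 (adjusted p = 0.113) and leaving out replicate 1 or 3 of the wild type (0.215 and 0.113) or any knockout replicate (0.0966, 0.115 and 0.0736 for 1, 2 and 3). The NEK2 call ended on log2(TPM + 1) (0.0908), and AURKA passed as lower with length and GC offsets (0.0393).

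In the spindle checkpoint group 1 of 5 genes fell and 0 rose, which was also 0 rises in DESeq2 and limma-voom, while 3 of the others had an unadjusted p under 0.05. BUB1B (ENSG00000156970.12, chr15:40161023-40221136, plus strand), the BUBR1 subunit of the checkpoint complex that binds CDC20, had 110, 114 and 117 CPM in wild-type cells and 103, 97.0 and 96.6 CPM in knockout cells. The groups did not overlap, and the fall was 0.20 in log2 units (SE 0.040, edgeR adjusted p = 0.00244). The other genes had estimates on the other side of 0, at 0.082 for BUB3, 0.078 for MAD2L1, 0.077 for the kinase BUB1 and 0.073 for the kinase TTK. Their edgeR adjusted p values were 0.0994, 0.128, 0.109 and 0.246. BUB3, MAD2L1 and BUB1 were each higher in 3 of 3 knockout libraries than in any wild-type library, whereas TTK overlapped. The deposited effective length of MAD2L1, which the authors' estimate of expressed isoforms sets, was 1452 to 1495 bases in wild-type cells and 1282 to 1343 bases in knockout cells. With effective-length offsets MAD2L1 passed as higher (log2 fold change 0.21, edgeR adjusted p = 0.0131), the BUB1B call ended (0.153) and BUB3 went to −0.014. On log2(TPM + 1) BUB3 and TTK were at −0.083 and −0.020, the BUB1B call ended (limma adjusted p = 0.0735) and MAD2L1 passed as higher (0.0459).

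CDC20, the APC/C activator and target of the checkpoint, was the only called gene among the 3 of its group. CDC20 (ENSG00000117399.14, chr1:43358955-43363203, plus strand) had 183, 185 and 190 CPM in wild-type cells and 193, 197 and 221 CPM in knockout cells. The groups were apart, with knockout replicate 3 the highest, and the rise was 0.13 in log2 units (SE 0.045, edgeR adjusted p = 0.0472). UBE2C, the ubiquitin-conjugating enzyme of APC/C, and PTTG1, securin, had log2 fold changes of 0.039 and 0.028 with overlapping libraries, and both were below 0 on log2(TPM + 1) and with length and GC offsets. The CDC20 call held in 5 of 16 alternatives. It ended with RLE size factors (edgeR adjusted p = 0.0576), in limma-voom (0.0560), under effective-length offsets (0.205) and with length and GC offsets (0.0764), and also without wild-type replicate 1, 2 or 3 (edgeR adjusted p = 0.157, 0.134 and 0.0720) and without knockout replicate 2 or 3 (0.0515 and 0.176). Its log2 fold change was 0.069 without knockout replicate 3 and 0.048 on log2(TPM + 1).

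Of the 10 kinesins KIF20A and KIF11 fell and 0 rose, with 0 rises also in DESeq2 and limma-voom and 1 gene, KIF22, higher at an unadjusted p under 0.05. KIF20A (ENSG00000112984.12, chr5:138178719-138187715, plus strand), which carries the passenger complex to the central spindle, had 98.6, 96.3 and 105 CPM in wild-type cells and 80.4, 84.6 and 81.2 CPM in knockout cells. The highest knockout library was below the lowest wild-type library, with a fall of 0.29 in log2 units (SE 0.044, edgeR adjusted p = 3.31e-04). KIF11 (ENSG00000138160.6, chr10:92593286-92655395, plus strand), the motor that pushes spindle poles apart, had 236, 227 and 236 CPM against 214, 218 and 216 CPM. It fell by 0.11 (edgeR adjusted p = 0.0207), a call that ended on leaving out wild-type replicate 1 or 3 (0.0846 and 0.0795) or, in the knockout group, replicate 1 (0.0659) and with length and GC offsets (0.0762). Genes on the opposite strand, BRD8 and CDC23, overlap KIF20A at 100.2 and 116 CPM in wild-type cells, so part of its signal may be shared. In knockout cells BRD8 and CDC23 had 99.2 and 121 CPM. The part of shared reads in the KIF20A change was not tested.

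The other 8 kinesins had log2 fold changes between −0.074 and 0.11. They were KIF4A, which organises chromosomes and the midzone, KIF14 and KIF23 of cytokinesis, KIF15 and KIF18A, which act on spindle and kinetochore microtubules, KIF20B, the chromosome-bound KIF22, and KIF2C, which takes microtubules apart at kinetochores. KIF22 had the smallest edgeR adjusted p of these (0.0719), which was 0.0315 without knockout replicate 2. KIF20B varied most among the kinesins, with 136, 136 and 115 CPM in knockout cells, and its estimate of 0.022 was below 0 without knockout replicate 1 or 2, without wild-type replicate 1, under effective-length offsets or on log2(TPM + 1), where KIF22 was below 0 too. KIF4A passed as lower on log2(TPM + 1) (adjusted p = 0.0406). KIF4B, a near copy of KIF4A, had 1.38 CPM in the wild type. METTL15, PDZD11 and TMEM42 overlap KIF18A, KIF4A and KIF15, at 61.2%, 28.5% and 18.0% of their wild-type level.

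The centromere and kinetochore group went both ways, with 2 rises, 2 falls and 4 genes not called. CENPE (ENSG00000138778.12, chr4:103105806-103198409, minus strand), a kinesin that carries chromosomes to the spindle equator, had 137, 149 and 147 CPM in wild-type cells and 114, 118 and 110 CPM in knockout cells. CENPF (ENSG00000117724.13, chr1:214603195-214664588, plus strand), a large protein of the outer kinetochore, had 526, 563 and 532 CPM against 439, 464 and 427 CPM. In both genes all knockout libraries lay below all wild-type libraries. They fell by 0.34 and 0.28 in log2 units (SE 0.042 and 0.038, edgeR adjusted p = 7.38e-05 and 1.25e-04). The CENPE call held in all 16 alternatives, and that of CENPF ended under effective-length offsets (adjusted p of 0.0907) and on log2(TPM + 1) (0.0514). CENPA, the centromeric histone, had 20.2 ± 1.69 CPM in wild-type cells and 17.7 ± 0.889 CPM in knockout cells (SD, n = 3 libraries, edgeR adjusted p = 0.111). It passed as lower with length and GC offsets (edgeR adjusted p = 0.0363), and SLC35F6, which overlaps it on the same strand, had 65.6 CPM in wild-type and 55.1 CPM in knockout cells.

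The 4 subunits of the NDC80 complex, the microtubule-binding rod of the kinetochore, did not move alike. NUF2 (ENSG00000143228.13, chr1:163266576-163355764, plus strand) had 52.0, 54.3 and 57.3 CPM in wild-type cells and 71.5, 74.0 and 68.7 CPM in knockout cells. It had the largest rise of the list, 0.39 in log2 units (SE 0.050, edgeR adjusted p = 9.10e-05), and passed in all 16 alternatives. NDC80, with which NUF2 pairs along its coiled coil, had 45.4, 45.9 and 47.7 CPM against 51.1, 48.4 and 49.7 CPM (log2 fold change 0.10, edgeR adjusted p = 0.167), and was at −0.026 on log2(TPM + 1). Per length, the ratio of NUF2 to NDC80 was 1.54, 1.43 and 1.42 in wild-type cells and 1.82, 1.85 and 1.81 in knockout cells, ranges that do not overlap. RGS5 and an unnamed gene on the opposite strand overlap NUF2 at 11.3% and 7.26% of its wild-type level.

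The other pair of the complex was less clear. SPC25 (ENSG00000152253.9, chr2:168834132-168913371, minus strand) had 29.0, 33.8 and 32.0 CPM in wild-type cells and 38.1, 42.2 and 34.0 CPM in knockout cells, a rise of 0.27 in log2 units (SE 0.079, edgeR adjusted p = 0.0227). Knockout replicate 3 lay just above the highest wild-type library. In TPM the groups overlapped, with 57.8, 61.7 and 62.5 against 50.9, 70.5 and 52.3, as the deposited effective length was 823 to 893 bases in wild-type cells and 900 to 1147 bases in knockout cells. The log2 fold change was 0.003 under effective-length offsets and −0.081 on log2(TPM + 1), where the median over all genes was −0.059. The call also ended with length and GC offsets (edgeR adjusted p = 0.119) and on leaving out wild-type replicate 1 or 3 (0.105 and 0.0522) or, in the knockout group, replicate 1 or 2 (0.0674 and 0.125). SPC24, its partner, had a log2 fold change of −0.031. CENPK, of the inner kinetochore, had 0.15 (edgeR adjusted p = 0.135).

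Among the 6 spindle microtubule proteins CKAP2 and HMMR rose. CKAP2 (ENSG00000136108.15, chr13:52455429-52476628, plus strand), a spindle microtubule stabiliser, had 255, 264 and 268 CPM in wild-type cells and 294, 299 and 290 CPM in knockout cells. HMMR (ENSG00000072571.20, chr5:163460203-163491945, plus strand), a spindle pole protein, had 85.9, 94.1 and 96.0 CPM against 99.8, 106 and 103 CPM. The groups were apart in both, with rises of 0.17 and 0.16 in log2 units (SE 0.032 and 0.046, edgeR adjusted p = 0.00189 and 0.0190). TPX2, the AURKA activator, NUSAP1, which bundles microtubules near chromosomes, DLGAP5, which stabilises kinetochore fibres, and ASPM, a spindle pole protein, had log2 fold changes of −0.024, 0.050, −0.074 and −0.087. Their libraries overlapped in CPM, while in TPM all knockout libraries of TPX2, DLGAP5 and ASPM lay below the wild type. The share of all genes apart in TPM was not counted, and the median over all tested genes on log2(TPM + 1) was −0.059. The CKAP2 and HMMR calls ended on log2(TPM + 1) (adjusted p = 0.360 and 0.503) and with effective-length offsets (0.0550 and 0.222), and that of HMMR also with length and GC offsets (0.0955), without wild-type replicate 1 (0.111) and without knockout replicate 2 (0.0805). ASPM passed as lower without knockout replicate 2 (0.0272) and on log2(TPM + 1) (0.0406), but was at 0.061 with length and GC offsets, where DLGAP5 passed as lower (0.0228).

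PRC1 was the called gene of the 3 cytokinesis genes. PRC1 (ENSG00000198901.14, chr15:90966038-90995629, minus strand), which bundles the antiparallel microtubules of the central spindle, had 250, 249 and 265 CPM in wild-type cells and 310, 294 and 291 CPM in knockout cells. All knockout libraries were above all wild-type libraries, and the rise was 0.23 in log2 units (SE 0.037, edgeR adjusted p = 4.94e-04). ANLN, an actin-binding scaffold of the cleavage furrow, and ECT2, which activates RhoA there, had log2 fold changes of −0.015 and −0.046. KIF20A and PRC1, both of the central spindle, moved in opposite directions, so that the ratio of their TPM was 0.267, 0.272 and 0.268 in wild-type cells and 0.164, 0.177 and 0.195 in knockout cells. The PRC1 call ended on log2(TPM + 1) (adjusted p = 0.0898), and an unnamed gene on the same strand overlaps it at 10.9% of its level.

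Both chromosome proteins fell, and MKI67 fell the most of the 48 genes. MKI67 (ENSG00000148773.14, chr10:128096659-128126385, minus strand), the Ki-67 proliferation marker that coats mitotic chromosomes, had 790, 822 and 748 CPM in wild-type cells and 512, 526 and 499 CPM in knockout cells. The lowest wild-type library was well above the highest knockout library, and the fall of 0.62 in log2 units (SE 0.038, edgeR adjusted p = 2.23e-07) is a decrease of 34.9%. TOP2A (ENSG00000131747.15, chr17:40388516-40417950, minus strand), the topoisomerase that untangles sister chromatids, had 527, 541 and 529 CPM against 456, 453 and 445 CPM. It fell by 0.24 (SE 0.030, edgeR adjusted p = 7.83e-05), with groups that were apart. Both calls held in all 16 alternatives, where the log2 fold change of MKI67 ran from −0.77 to −0.43 and that of TOP2A from −0.31 to −0.21.

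**Figure D3:**
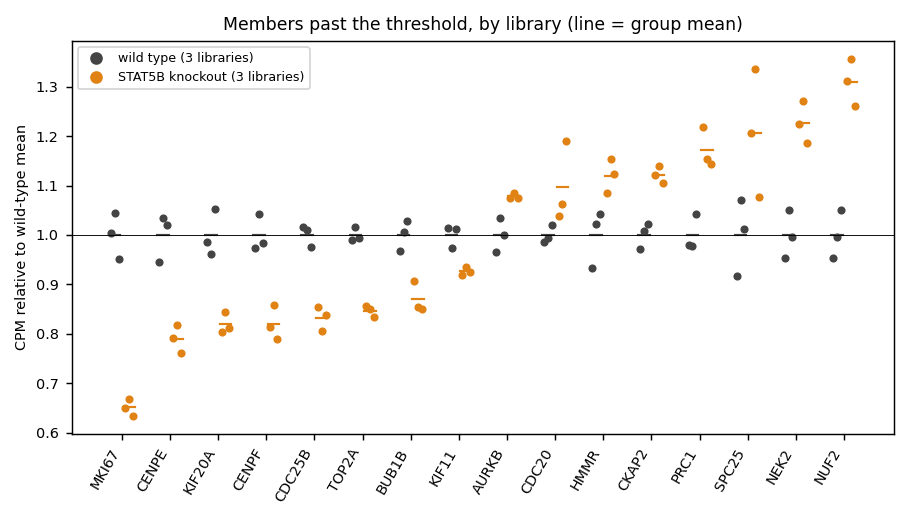
CPM of the 16 genes past the threshold in each library, divided by the wild-type mean of the gene; grey points are the 3 wild-type and orange points the 3 knockout libraries, and short lines are group means. The knockout means are lowest for MKI67 and highest for NUF2, and the means of the groups are closest for KIF11, AURKB and CDC20, while single libraries come closest for SPC25.

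The direction of change followed the length of the mRNA. Of the 24 shorter genes (deposited length 722 to 2352 bases, mean of the 6 libraries) 6 rose and 0 fell, and of the 24 longer genes (2683 to 11295 bases) 2 rose and 8 fell. The median log2 fold changes were 0.068 and −0.059. Other genes at like levels showed the same trend: of 3210 in the shorter range 23.4% rose and 7.38% fell (median 0.047), and of 4193 in the longer range 10.5% rose and 26.4% fell (median −0.051). Spearman's rho of length and log2 fold change was −0.50 across the 48 genes and −0.38 across the 8389 genes at like levels, given as a description because genes within the same 6 libraries are not independent. MKI67, the longest at 11295 bases, lay below other genes of its length, as the bin of longest genes (median length 9804 bases) had a median of −0.20. With offsets for length and GC content 4 of the 48 genes rose (NUF2, NEK2, PRC1 and CKAP2), against 10.4% of all genes, and 12 fell, against 10.5%. Shares at like levels were not computed for this fit. The falls were those of MKI67, CENPE, KIF20A, CENPF, CDC25B, TOP2A and BUB1B, joined by CENPA, CDK1, CCNB2, DLGAP5 and AURKA. MKI67 was then at −0.43, and rho across the 48 genes was −0.17. The part of length in each change was not tested beyond these offsets.

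**Figure D4:**
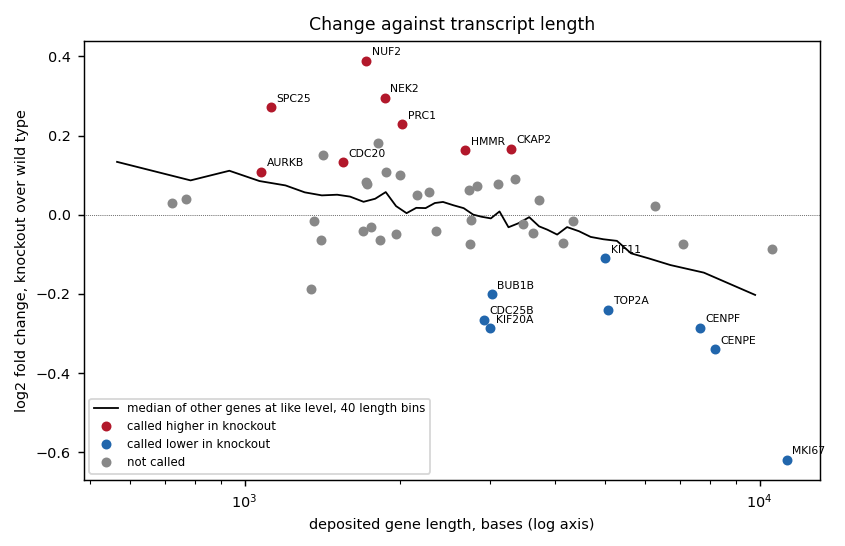
Log2 fold change of each of the 48 genes against its deposited length on a log axis; red and blue points are called higher and lower, and the black line is the median of other genes at like levels in 40 bins of length. The 8 genes that fell are all among the 24 longer ones, below the line, and MKI67 is at the lower right.

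Position on the chromosomes moved with some of the rises. Tested genes on chromosome 1 had a median log2 fold change of 0.15, and of the 640 called (40.7%), 564 were higher and 76 lower. Of the 7 listed genes there 3 rose (NUF2, NEK2 and CDC20), CENPF fell, and KIF2C, KIF14 and ASPM did not pass. Tested genes within 5 Mb had a median of 0.23 around NUF2, 0.15 around NEK2 and 0.21 around CDC20, so CDC20 at 0.13 rose less than its neighbours. CENPF fell although genes within 5 Mb of it had a median of 0.18. KIF2C, KIF14 and ASPM were at 0.058, −0.074 and −0.087, among neighbours with medians of 0.21, 0.22 and 0.22. Away from chromosome 1, 5 of 41 listed genes rose and 7 fell (29.3% called). Of all 14384 tested genes there, 1360 rose and 1742 fell (21.6% called), and shares at like levels were not computed for this split.

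Shifts were also present around some genes on other chromosomes. The median within 5 Mb was 0.12 around AURKB, close to its own 0.11, and 0.13 around PRC1, which rose by 0.23. It was −0.12 around TOP2A, which fell by 0.24, and −0.14 around BIRC5, which was at −0.040. Around MKI67, CENPE, KIF20A and CDC25B, which fell, the medians were 0.069, 0.047, −0.010 and 0.005. Around BUB1B and KIF11, which also fell, they were −0.039 and −0.034. SPC25, CKAP2 and HMMR rose among neighbours with medians of 0.025, 0.049 and 0.029. The part of position in each change was not tested.

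**Figure D5:**
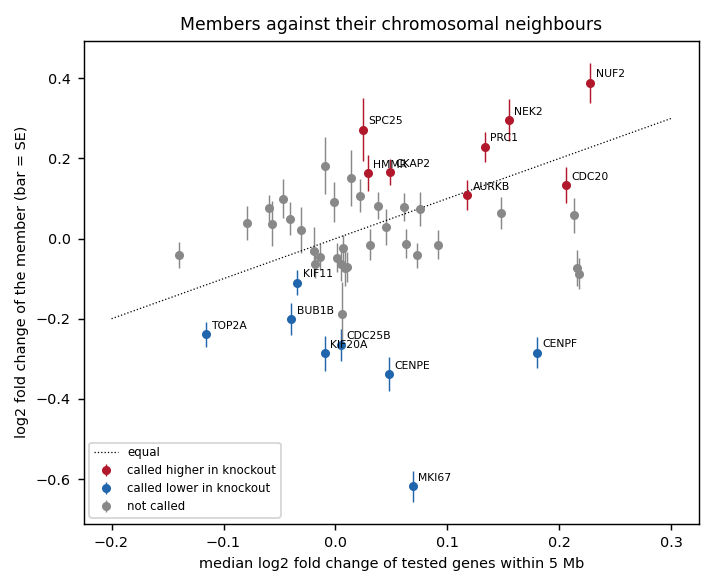
Log2 fold change of each of the 48 genes (vertical, bars are SE) against the median log2 fold change of tested genes within 5 Mb (horizontal); the dotted line marks equal values, and red and blue mark genes called higher and lower. NUF2, NEK2, PRC1, AURKB and CDC20 lie at positive neighbour medians, as do CKAP2, HMMR and SPC25 at 0.049, 0.029 and 0.025. CENPF, MKI67, CENPE and CDC25B fell among neighbours with positive medians, and KIF20A, TOP2A, BUB1B and KIF11 among neighbours with negative medians.

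Other genes of mitosis also went both ways, described here by counts. Over all tested genes 12.1% were higher and 11.4% lower. Within the range of mean level of the mitotic genes described above, 17.2% of tested genes were higher and 17.3% lower. That range was not set anew for each of the lists that follow. Of 36 further kinetochore and checkpoint genes 10 rose and 4 fell, with a median log2 fold change of 0.028. The kinetochore subunits PMF1, MIS12 and NSL1 rose by 0.41, 0.29 and 0.31, and INCENP, the scaffold of the passenger complex, KNL1, the platform for BUB1, and CENPM fell by 0.22, 0.16 and 0.37. Of 18 APC/C genes 2 rose (FBXO5, the inhibitor EMI1, and the subunit ANAPC10, log2 fold changes 0.26 and 0.39) and 3 fell (the subunits ANAPC1 and ANAPC2 and the separase ESPL1, −0.20, −0.34 and −0.22). Of 20 cohesin and condensin genes 2 rose (SMC1A and NCAPH, 0.20 and 0.18) and 6 fell, among them the cohesin acetyltransferase ESCO2 by 0.87 and the condensin subunits NCAPD2 and SMC2 by 0.24 and 0.17. The CENPM call ended on leaving out wild-type replicate 1 or 2 (edgeR adjusted p = 0.0756 and 0.0715) or, in the knockout group, replicate 1 or 2 (0.0803 and 0.0539), and that of ANAPC10 on leaving out wild-type replicate 1 or 2 (0.0602 and 0.106) or, in the knockout group, replicate 1 (0.123).

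Centrosome and spindle genes were the list with the most falls, 15 of 32, with 3 rises and a median of −0.091. Among tested genes at the levels of the 48 mitotic genes 17.3% were lower. Of the 32 genes 19 were at least as long as the shortest of the longer 24 mitotic genes described above. Of these 19 genes 12 fell, beside 26.4% of other long genes at like levels. The part of length in these falls was not tested. PCNT, a scaffold of the centrosome, CIT, the citron kinase, and KIF18B, a kinesin, fell by 0.55, 0.48 and 0.41, while HAUS1, STIL and SASS6 rose by 0.33, 0.27 and 0.19. The SASS6 call ended without wild-type replicate 1 (edgeR adjusted p = 0.0644) or knockout replicate 1 or 2 (0.0504 and 0.0555). Of 20 regulators of mitotic entry and exit 4 rose and 2 fell. CKS1B and CKS2, small subunits of CDK complexes, and ENSA, an inhibitor of the phosphatase PP2A, rose by 0.62, 0.24 and 0.28, and the phosphatase CDC14B and the CDK1-inhibiting kinase WEE1 fell by 0.39 and 0.14. CKS1B, ENSA, PMF1, NSL1, STIL and SASS6 lie on chromosome 1. The WEE1 call ended without wild-type replicate 2 or 3 (0.0589 and 0.0501).

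Among 25 transcriptional regulators of G2/M genes 6 rose and 3 fell. FOXM1, the forkhead factor of mitotic genes, had 221, 214 and 213 CPM in wild-type cells and 204, 198 and 200 CPM in knockout cells. It fell by 0.11 in log2 units (edgeR adjusted p = 0.0260), a call that ended on leaving out wild-type replicate 1 or 2 (0.116 and 0.0608) or, in the knockout group, replicate 2 (0.0853). MYBL2, which encodes B-MYB, and E2F1 did not pass, at −0.077 and 0.013 (edgeR adjusted p = 0.185 and 0.864). CDKN1A, the CDK inhibitor p21, had 17.5, 15.1 and 17.1 CPM against 27.5, 22.6 and 26.1 CPM. It rose by 0.61 in log2 units (edgeR adjusted p = 2.02e-04), with groups that were apart. LIN9, a subunit of the DREAM core on chromosome 1, rose by 0.44, the E2F partner TFDP2 fell by 0.27 and RBL1, the p107 pocket protein, fell by 0.14. The direction of TFDP2 turned under effective-length offsets (0.14) and on log2(TPM + 1) (0.055). The RBL1 call ended in 12 alternatives, among them DESeq2 (adjusted p = 0.0788) and leaving out any library other than wild-type replicate 1 (0.0510 to 0.174).

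Genes of the earlier phases gave a like picture. Of 41 S-phase genes 10 rose and 8 fell, with a median of 0.053, including rises of PCNA, the sliding clamp, by 0.31 and of EXO1, a nuclease, and DTL, a ubiquitin ligase adaptor, by 0.32 and 0.21. EXO1 and DTL lie on chromosome 1. HELLS, a chromatin remodeller, BRIP1, a helicase, and MCM5 of the replicative helicase fell by 0.34, 0.21 and 0.17. Of 13 D cyclins, G1 kinases and CDK inhibitors 1 rose and 2 fell, and CCND1, cyclin D1, fell by 0.67 in log2 units. CDKN2A rose by 0.17, and CDKN2B fell by 0.36, a call that ended on leaving out wild-type replicate 1 or 3 (edgeR adjusted p = 0.0830 and 0.103) or, in the knockout group, replicate 2 or 3 (0.104 and 0.0968). With effective-length offsets the calls of ANAPC2, ANAPC10, CDKN2B, CENPM, DTL, ESPL1, FOXM1, INCENP, KNL1, RBL1, SASS6 and WEE1 ended, and on log2(TPM + 1) those of ANAPC10, CDKN2A, CDKN2B, DTL, ESPL1, FBXO5, INCENP, KNL1, NCAPH, RBL1, SASS6, SMC1A, STIL and WEE1. With length and GC offsets those of ANAPC10, CKS2, KNL1 and RBL1 ended.

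The spread between libraries of a group was small for the mitotic genes. The median coefficient of variation over the 48 genes was 2.99% in wild-type cells and 3.25% in knockout cells, beside 3.39% and 4.0% over the genes at like levels. The largest were 8.40% in wild-type cells and 10.8% in knockout cells. Within knockout replicate 2, 33 of 48 genes lay above their group mean, with a median log2 deviation of 0.023, and in knockout replicate 3, 13 did, with a median of −0.021. In wild-type replicate 1, 15 lay above their group mean (median −0.022). The same counts were not taken over all genes, so whether these small shifts are particular to the mitotic genes was not tested.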

How the data were processed

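Messenger RNA libraries of 3 wild-type and 3 STAT5B knockout HEK293 samples were analysed from 1 gene table per library. FastQC, fastp, DRAGEN and Picard and the build hg38 are named, without versions or roles, per the submitters' processing notes. The sources used here give neither the annotation release nor the use of strand. Each table holds estimated counts, not all whole, TPM, length and effective length per gene, per the file headers. Estimated counts as deposited were rounded to whole numbers for the count tests. TPM as deposited by the authors was used for levels and in an alternative. Of 60609 identifiers 60295 were named, and positions are those of GENCODE 29 on hg38.

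After a filter on low counts (edgeR filterByExpr, minimum count 10 and minimum total 15), 15958 genes were tested and 44651 were not. The test was edgeR 4.0.16 quasi-likelihood on TMM-scaled library sizes in R 4.3.3, with Benjamini-Hochberg adjustment over all genes tested and a threshold of 0.05. The 16 alternatives were DESeq2 1.42.0, limma-voom and limma on log2(TPM + 1) or log2(TPM + 0.1) (limma 3.58.1), RLE size factors, other filters, effective-length offsets, a replicate block, leaving out each library, and length and GC offsets, the last chosen after seeing the data. Fold changes on the log2(TPM + 1) scale understate changes of low genes. The fit was tested on simulated data. The genes described and the related lists were chosen with earlier results of these data known. Library values are given for every gene past the threshold and for CCNB1, CDK1, PLK1, CDC20, AURKA and TOP2A. From each related list up to 3 genes per direction with the smallest p are named, all called genes where there are at most 5, and always FOXM1, MYBL2, E2F1 and CDKN1A. Some genes that this rule names or that overlap a listed gene are not reported here. A planned search of protein sequences for destruction motifs was not run, as a protein table was not used here.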

Additional observations from a re-analysis of the deposited data

How the results depend on the processing

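Of the 16 genes that passed, MKI67, TOP2A, CENPE, CDC25B, KIF20A and NUF2 did so in all 16 alternatives. The number of mitotic genes higher was 4 with effective-length offsets, 2 on log2(TPM + 1), 2 on log2(TPM + 0.1), 4 with length and GC offsets and 4 to 7 when each library was left out, against 8; the number lower was 6 with effective-length offsets and 12 with length and GC offsets. Their median log2 fold change was −0.020 with effective-length offsets and −0.090 and −0.091 on log2(TPM + 1) and log2(TPM + 0.1). In these 3 settings 891, 488 and 483 of all genes were higher and 843, 1135 and 1139 lower, against 1924 and 1818. Leaving out 1 library called 8.19% to 11% of all genes higher and 7.83% to 10.9% lower. The median over all genes on log2(TPM + 1) was −0.059. The STAT5B log2 fold change did not pass with DESeq2 (−0.14, adjusted p = 0.0759), without a low-count filter (−0.14, 0.0620), with effective-length offsets (−0.24, 0.104), on log2(TPM + 1) (−0.30, 0.0844) or log2(TPM + 0.1) (−0.30, 0.0830), or with length and GC offsets (−0.12, 0.0835), and ran from −0.17 to −0.12 when each library was left out, passing only without wild-type replicate 2 (0.0325; 0.0610 to 0.160 in the others).

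Same-numbered libraries did not all deviate together (correlations −0.073, 0.17 and 0.029 over 10779 genes), though the 0.17 of replicates 2 was the largest of any pair. Wild-type replicate 1 correlated best with knockout replicate 3 (0.15), so the numbers are not taken as pairs. With the replicate block 7 mitotic genes were higher and 8 lower, AURKB being lost, 1887 and 1773 of all genes were called, and STAT5B was at −0.14 (edgeR adjusted p = 0.0554).

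Signs turned as follows, and the cause was not tested. With effective-length offsets BUB3 was at −0.014, KIF20B at −0.019, E2F1 at −0.0047 and TFDP2 at 0.14. With length and GC offsets MAD2L1 was at −0.0044, UBE2C at −0.072, PTTG1 at −0.11, KIF14 at 0.0097, NUSAP1 at −0.0060, ASPM at 0.061 and ANLN at 0.0089. On log2(TPM + 1) and log2(TPM + 0.1) BUB3 was at −0.083 and −0.083, TTK at −0.020 and −0.020, UBE2C at −0.042 and −0.042, PTTG1 at −0.059 and −0.059, KIF20B at −0.089 and −0.091, KIF22 at −0.016 and −0.016, NDC80 at −0.026 and −0.027, SPC25 at −0.081 and −0.082, NUSAP1 at −0.0089 and −0.0090, E2F1 at −0.072 and −0.074, and TFDP2 at 0.055 and 0.056. When each library was left out, values ran from −0.044 to 0.0068 for ANLN, −0.049 to 0.020 for CCNA2, −0.055 to 0.022 for CCNB1, −0.023 to 0.041 for E2F1, −0.021 to 0.095 for KIF20B and −0.064 to 0.0021 for SPC24. Depth limits the lower genes most: CENPA and CENPK, near 20 CPM, had SE of 0.081 and 0.069, against 0.030 for TOP2A.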
